A study of Caenorhabditis elegans with 2 samples.

Results

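The regions described here are those of a CEH-48 ChIP-seq experiment with a summit at most 200 bp from a tRNA gene. They numbered 360 of the 30000 regions in the list that the authors made from both replicates pooled. Membership was set by position alone: the summit of a region was compared with the 612 nuclear tRNA genes of the Ensembl annotation (WBcel235, the assembly also called ce11), and no signal value was used. The same rule found 352 of 28372 regions in the list of replicate 1 and 363 of 30000 in that of replicate 2. Chromatin came from whole embryos of Caenorhabditis elegans strain OP631, whose genotype is unc-119(tm4063) III; wgIs631 and which carries a transgene for CEH-48 fused at its C-terminal end to a GFP-FLAG tag. Embryos of both sexes were collected at a late embryonic stage, 3.5 hours after synchronization by egg bleaching, and both libraries are labelled biological replicates of this 1 group. The labels describe the precipitation as done with an antibody to GFP, although their antibody tag gives ceh-48. No library of a strain without the tag and no input library was itself analysed here, and in whole embryos the cells that gave a signal are not known. Numbers of reads are not in the lists, and the sequencing depth behind them is unknown.

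CEH-48 belongs to the ONECUT family of transcription factors, which carry a cut domain and a homeodomain and bind the sequence ATCGAT or ATTGAT. In C. elegans, ceh-48 is known for its expression throughout the nervous system. tRNA genes are transcribed by RNA polymerase III from promoters inside the gene: TFIIIC binds the A box near the 5′ end and the B box in the part that becomes the T arm, and TFIIIB is then placed just upstream of the gene, where the polymerase is recruited. Transcription ends at a run of T just downstream.

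Sequences are shown for 7 tRNA genes among the 15 with the strongest regions and for 4 tRNA genes of unique sequence that had no region in any list, so that their promoter boxes and the bases around the gene can be read side by side. Each run is the WBcel235 RefSeq sequence of the tRNA strand, 5′ to 3′, with 20 bases before the gene and 12 after it. Capitals mark the A box (first) and the B box (second, GTTCNANNC) wherever a match was found. The 7 genes of the top 15 shown here were C04A11.t1 (chrX:13665535-13665685, plus strand), Y69A2AR.t2 (chrIV:2639797-2639900, minus strand), F57F5.t1 (chrV:12002156-12002272, plus strand), F15G9.t1 (chrX:9743569-9743672, plus strand), F29C4.t1 (chrIV:143962-144066, plus strand), C33G3.t2 (chrX:14063934-14064038, minus strand) and C02B4.t2 (chrX:12665208-12665323, plus strand).
C04A11.t1: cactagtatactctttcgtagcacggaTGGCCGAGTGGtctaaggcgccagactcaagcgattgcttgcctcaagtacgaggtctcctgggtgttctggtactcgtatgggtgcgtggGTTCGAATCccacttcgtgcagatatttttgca
Y69A2AR.t2: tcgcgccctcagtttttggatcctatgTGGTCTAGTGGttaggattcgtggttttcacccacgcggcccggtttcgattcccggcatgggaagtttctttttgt
F57F5.t1: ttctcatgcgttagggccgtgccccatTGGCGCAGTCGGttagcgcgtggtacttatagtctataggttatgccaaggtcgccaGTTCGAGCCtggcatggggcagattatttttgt
F15G9.t1: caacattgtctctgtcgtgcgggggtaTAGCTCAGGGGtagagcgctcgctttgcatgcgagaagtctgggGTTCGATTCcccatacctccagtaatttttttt
F29C4.t1: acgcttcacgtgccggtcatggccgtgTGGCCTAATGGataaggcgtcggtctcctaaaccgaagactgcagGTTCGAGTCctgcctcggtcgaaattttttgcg
C33G3.t2: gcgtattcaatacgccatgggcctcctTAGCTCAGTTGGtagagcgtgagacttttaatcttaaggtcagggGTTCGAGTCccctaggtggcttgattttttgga
C02B4.t2: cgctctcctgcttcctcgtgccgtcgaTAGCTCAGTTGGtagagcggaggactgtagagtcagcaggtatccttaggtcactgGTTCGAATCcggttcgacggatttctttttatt
The genes with no region were R148.t1 (chrIII:3195419-3195532, plus strand), B0244.t3 (chrIII:5762045-5762146, minus strand), F37A4.t1 (chrIII:6724123-6724240, minus strand) and ZK1010.t1 (chrIII:13009403-13009511, plus strand).
R148.t1: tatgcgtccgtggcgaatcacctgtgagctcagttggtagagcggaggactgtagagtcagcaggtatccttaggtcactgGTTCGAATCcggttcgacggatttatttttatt
B0244.t3: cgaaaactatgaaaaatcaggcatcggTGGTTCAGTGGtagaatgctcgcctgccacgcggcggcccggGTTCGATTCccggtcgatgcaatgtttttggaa
F37A4.t1: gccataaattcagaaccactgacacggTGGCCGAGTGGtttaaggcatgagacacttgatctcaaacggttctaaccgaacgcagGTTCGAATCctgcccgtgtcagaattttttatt
ZK1010.t1: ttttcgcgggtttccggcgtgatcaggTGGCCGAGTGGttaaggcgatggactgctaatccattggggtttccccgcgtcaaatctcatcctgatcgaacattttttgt
Not every gene shown held both boxes. Of the 7 genes with strong regions, Y69A2AR.t2 had no match to GTTCNANNC. Among the 4 genes with no region, ZK1010.t1 had no match to it either, and R148.t1 had no A box match. A T run followed the body in every run shown.

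Regions at tRNA genes stood high in the authors' lists. The authors also deposited an IDR set, thresholded by the irreproducible discovery rate (IDR), which scores how well the ranks of peaks repeat between replicates. The set held the pooled regions of highest signal, 6.13% of the list, and not every one of them ranked high in both replicates. Of the 360 regions at tRNA genes, 145 were in the IDR set, which is 40.3% (exact 95% interval 35.2 to 45.5%), against 1695 of the other 29640 pooled regions (5.72%, 5.46 to 5.99%). Intervals throughout are Clopper-Pearson binomial intervals that cover counting error only. For each replicate, the same number of regions of highest signal in its own list was taken as its top set. In replicate 1 they made up 6.49% and held 128 of the 352 regions at tRNA genes (36.4%), against 6.11% of the other regions. In replicate 2 they made up 6.13% and held 147 of 363 (40.5%), against 5.71% of the other regions. The bases within 200 bp of a tRNA gene are 0.272% of the nuclear genome.

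Signal here means the value that the authors' peak caller gave a region, on a scale that is not stated, so it ranks regions within a list and cannot be compared between lists. In the pooled list the 360 regions at tRNA genes had a median signal of 69.2, ranging from 20.28 at the weakest to 399.9 at the strongest, and the other 29640 regions had a median of 29.8. Their median percentile was 91.7 in the pooled list, 89.0 in the list of replicate 1 and 91.1 in that of replicate 2. Regions at tRNA genes were 1.2% of the whole pooled list. Of the 100 highest ranks, 1 was a region at a tRNA gene, near that share. Of the 500 highest, 35 were, which is above it. They made up 91 of the first 1000 ranks (9.1%), 62 of the next 1000 and 42 of the 1000 after that, and 16 in each of the following 2 bins. Within the IDR set, regions at tRNA genes had a median signal of 150.8 and the other IDR peaks 139.3, but the highest values were 399.9 at tRNA genes and 1044 among the other peaks. Among the 100 highest ranks, the 1 region at a tRNA gene was that of C04A11.t1.

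**Figure D1:**
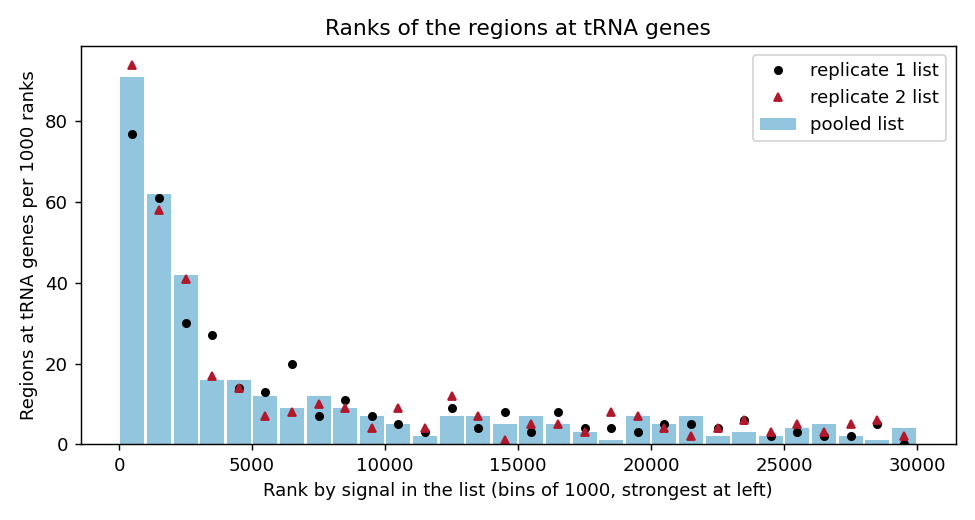
Number of regions at tRNA genes per 1000 ranks by signal (x axis, strongest at left), in the pooled list (bars), replicate 1 (circles) and replicate 2 (triangles). All 3 lists have their highest counts in the first 1000 ranks (91, 77 and 94 regions) and fall to under 30 per 1000 beyond the first 3000.

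At the threshold of the IDR set, the last regions inside were at W06D4.t1, an Asn tRNA gene on chromosome I (pooled signal 87.12, rank 1780), and T25E4.t1, a Val tRNA gene on chromosome II (85.17, rank 1839). The first outside were at R04E5.t6, a Gly tRNA gene on X (84.56, rank 1860), and F56F4.t1, a Tyr tRNA gene on chromosome I (84.01, rank 1881). The values inside and outside ran on without a gap.

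The strongest region lay at C04A11.t1, a Leu tRNA gene of unique sequence on X (13665555 to 13665673), outside any protein-coding gene. Its signal was 96.28 in replicate 1 (rank 152), 306.8 in replicate 2 (rank 82) and 399.9 in the pooled list (rank 94). Next came Y69A2AR.t2, a Glu tRNA gene on chromosome IV that overlaps an exon of mdf-2, which encodes a spindle checkpoint protein. Its signal was 62.43 in replicate 1 (rank 469), 294.8 in replicate 2 (rank 98) and 356.1 in the pooled list. This region differed from the others of the top 15 in holding ATCGAT within 50 bp of its summit, which lay 27 bp upstream of the gene. The third, with a pooled signal of 331.2, lay between M02F4.t2 (Glu) and M02F4.t1 (Gly) on X, a pair transcribed away from each other. Its signal was 92.86 in replicate 1 and 237.4 in replicate 2, and its summit was 22 bp upstream of M02F4.t1.

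The remaining 12 of the 15 strongest regions had pooled signals between 276.4 and 328.7. W03G11.t1, a Lys tRNA gene on X, had 90.14 in replicate 1 and 233.2 in replicate 2. C42D8.t1, an Ile tRNA gene on X, had 81.33 in replicate 1 and 235.0 in replicate 2. At C28G1.t1, a Glu tRNA gene on X, the values were 78.66 in replicate 1 and 233.3 in replicate 2. These 3 regions ranked between 194 and 272 in both lists, so each library by itself placed them high. F57F5.t1, an Ile tRNA gene of unique sequence on chromosome V, had 69.45 in replicate 1 and 245.6 in replicate 2. T21B4.t1, another Ile tRNA gene, lies on chromosome II in an intron of the collagen gene col-85 and had 71.89 in replicate 1 and 225.1 in replicate 2. C33G3.t2, a Lys tRNA gene on X, had the highest signal of all regions at tRNA genes in replicate 1, 100.8 (rank 128), with 186.5 in replicate 2 (rank 348). The other members of the 15 lie in introns and are given with their host genes.

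The 2 replicates held most of the stronger regions. A summit within 100 bp was present in both replicate lists for 230 of the 360 regions at tRNA genes (63.9%, 58.7 to 68.9%), against 25.2% of the other pooled regions. Within the IDR set the share was 137 of 145 at tRNA genes (94.5%, 89.4 to 97.6%) and 94.4% among the other peaks. Of those 145 regions, 104 were in the top set of both replicates (71.7%), against 68.0% of the other IDR peaks. Across the 230 regions found in both, the replicates' signals had a Spearman correlation of 0.794 and a Pearson correlation of 0.779 on the log2 scale, a description across regions that come from the same 2 libraries. For the 7456 other pooled regions found in both, the Spearman correlation was 0.594 and the Pearson correlation 0.791. Over the 137 IDR regions at tRNA genes found in both, the Spearman correlation was 0.729 and the Pearson correlation 0.722. Over the 1600 other IDR peaks found in both, they were 0.697 and 0.734, so the order of these sets depends on the measure.

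**Figure D2:**
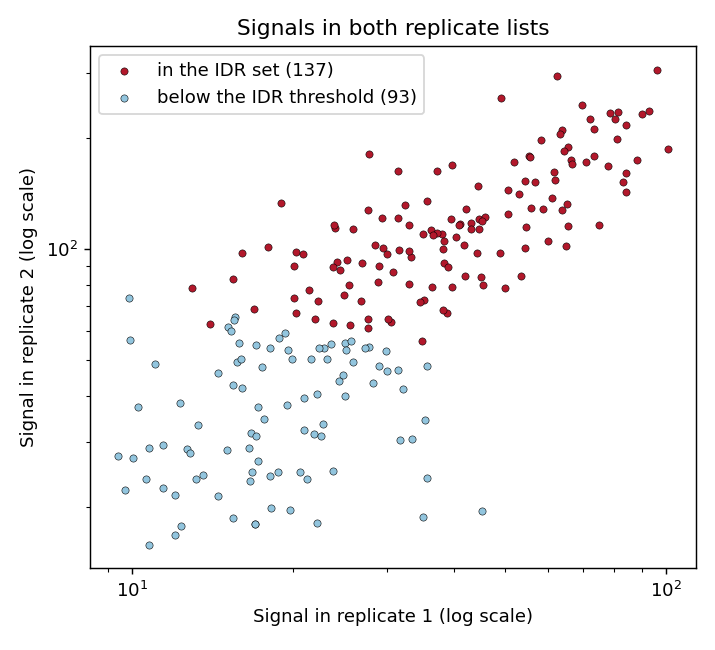
Signal of each region at tRNA genes in replicate 1 (x axis) and replicate 2 (y axis), both on log scales, for the 230 regions with a summit in both lists, by membership of the IDR set. The signals of the 137 IDR regions (dark) rise together in the 2 replicates, while the 93 others (light) spread widely.

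In 8 of the 145 IDR regions a replicate had no matching summit, 5 in replicate 1 and 3 in replicate 2. The highest of these lay at T28B4.t1, a Phe tRNA gene on X, with a pooled signal of 250.2 (rank 365) and 76.79 in replicate 1 (rank 286), and no region within 200 bp of the gene in replicate 2. The same was true of sup-7, with a pooled signal of 152.9 and 54.66 in replicate 1. At the other 6 genes, both lists held a region within 200 bp of the gene, but 1 list had no summit within 100 bp of the pooled one. These were F56C3.t1, C14B9.t2, B0212.t1, F14B4.t1, C29F7.t3 and C11E4.t1. In replicate 1 the region near the gene was weak at B0212.t1 (18.16), C29F7.t3 (18.32) and C11E4.t1 (16.65). The median of IDR regions at tRNA genes found in replicate 1 was 40.12. The unmatched region had 57.52 at F56C3.t1 and 53.55 at C14B9.t2 in replicate 1, and 78.61 at F14B4.t1 in replicate 2.

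Counted by gene, 361 of the 612 tRNA genes had a pooled region (59.0%) and 155 had an IDR peak (25.3%, 21.9 to 29.0%). Replicate 1 alone gave 137 genes in its top set (22.4%) and replicate 2 alone gave 157 (25.7%), with 117 genes in common. At the other end, 175 genes had no region in any of the 3 lists. Neighbouring genes shared regions: 32 of the 360 regions had 2 tRNA genes within reach, so genes are not independent counts.

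Summits sat at the 5′ end of the tRNA gene. Over all 360 regions the median summit lay 14 bp inside the gene from its 5′ end; the medians were 16.5 bp in replicate 1 and 13 bp in replicate 2. For the 145 IDR regions the median was 11 bp, with quartiles at 2 and 32 bp, and for the 215 weaker regions it was 33 bp, with quartiles at -15 and 90.5 bp. The 37 strongest IDR regions had a median of 6 bp and lay between -36 and 37 bp. Summits within 25 bp of the 5′ end made up 97 of 145 IDR regions (66.9%, 58.6 to 74.5%) and 56 of 215 weaker ones (26.0%, 20.3 to 32.5%).

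With the gene split at its midpoint, the A box lies on the 5′ side and the B box on the 3′ side. Of the 145 IDR summits, 33 lay upstream of the gene, 83 on its 5′ side (57.2%, 48.8 to 65.4%), 20 on its 3′ side and 9 downstream. Among the 215 weaker regions, 69 were upstream, 46 on the 5′ side (21.4%, 16.1 to 27.5%), 41 on the 3′ side and 59 downstream. Among the strongest regions, the summit lay 6 bp inside the gene at F15G9.t1, 7 bp at sup-5, 8 bp at T21B4.t1 and at C33G3.t2, and 2 bp at C02B4.t2. It lay 22 bp upstream at M02F4.t1 and 2 bp upstream at F29C4.t1.

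**Figure D3:**
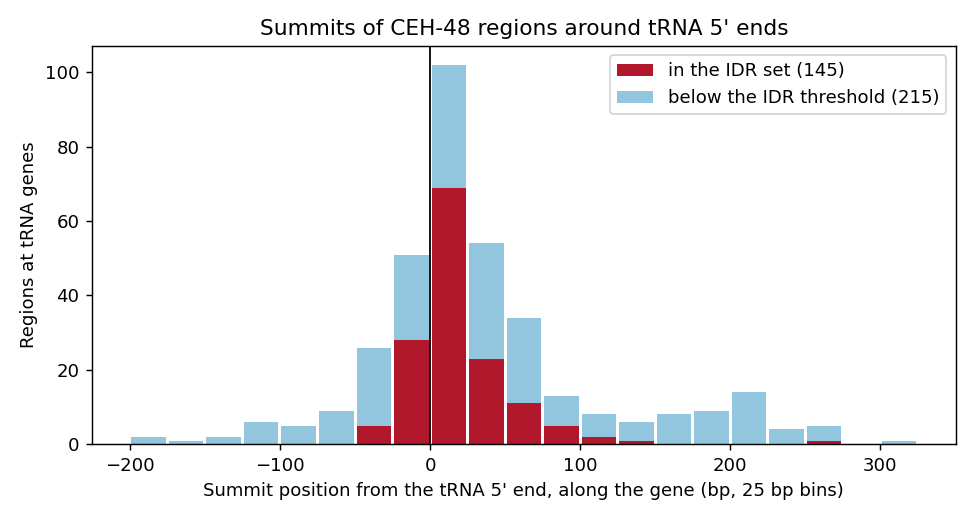
Number of regions by summit position relative to the tRNA 5′ end (x axis, bp, positive inside and beyond the gene; bins of 25 bp), split into IDR regions (dark) and regions below the IDR threshold (light). The bin from 0 to 25 bp holds 69 IDR regions and 33 others, the highest counts of the plot, and the weaker regions spread over the whole range.

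The ONECUT sequence ATCGAT was searched on both strands. Windows at tRNA genes are filled in large part with tRNA sequence by the rule that chose them, so their share is set beside that of tRNA genes with no region as well as that of other peaks. ATCGAT was present in the 100 bp around the summit in 3 of the 145 IDR regions at tRNA genes (2.07%, 0.429 to 5.93%), against 811 of the 1695 other IDR peaks (47.8%). Over all pooled regions the shares were 11 of 360 at tRNA genes (3.06%) and 11.5% of the others. Of the 3, the summit at Y69A2AR.t2 lay 27 bp upstream of the gene, that at C16B8.t2 was 30 bp and that at T22F7.t1 168 bp beyond the end of the tRNA body. None of the 3 summits was inside a tRNA gene. In 100 bp centred 11 bp inside the gene, ATCGAT was found at 2 of 155 tRNA genes with an IDR peak (1.29%, 0.157 to 4.58%) and at 4 of 251 with no pooled region (1.59%, 0.436 to 4.03%). With ATCGAT or ATTGAT counted around the summit, the share was 30 of 360 regions at tRNA genes (8.33%) and 22.3% of the other pooled regions. Within the IDR set it was 6 of 145 regions at tRNA genes (4.14%) and 67.4% of the other peaks. In the 100 bp at the gene, either sequence was found at 3.87% of genes with an IDR peak and 7.17% with no pooled region.

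The B box, GTTCNANNC on either strand, was present in the same 100 bp in 68 of 145 IDR regions at tRNA genes (46.9%, 38.6 to 55.4%) and in 3.13% of the other IDR peaks; windows at tRNA genes hold tRNA sequence by the rule that chose them, so this is not a finding about CEH-48. What can be compared is genes with and without a peak. In the tRNA body a B box was found in 148 of 155 genes with an IDR peak (95.5%), in 200 of 206 with a weaker region (97.1%) and in 239 of 251 with none (95.2%). An A box, searched by its usual consensus near the start of the gene, was found in 94.8% of genes with an IDR peak, 94.2% with a weaker region and 88.8% with none. A run of 4 T within 30 bp downstream was found in 99.4% of genes with an IDR peak, 99.5% with a weaker region and 98.0% with none. For each of these elements, the exact intervals of the 3 sets of genes overlapped, which does not show that the sets are alike. An IDR peak was found at 26.1% of the 564 genes with an A box match and 16.7% of the 48 without. For the B box the shares were 25.2% of 587 genes with a match and 28.0% of 25 without. These differences were not tested. No match means only that these letters were not in the searched stretch.

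Summits were also placed against repeats and protein-coding genes. They lay on soft-masked (repeat-annotated) bases in 13.3% of the 360 regions at tRNA genes and 29.6% of the other pooled regions. Summits fell from 1000 bp upstream to 200 bp downstream of a protein-coding 5′ end in 29 of the 145 IDR regions at tRNA genes and 914 of the 1695 other IDR peaks (53.9%).

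Of the 21 isotypes (20 amino acids and selenocysteine), 20 had at least 1 gene with an IDR peak. The share of genes with an IDR peak was highest for Cys (5 of 13, 38.5%, 13.9 to 68.4%), Glu (15 of 41, 36.6%), Ala (12 of 34, 35.3%) and Leu (12 of 39, 30.8%), followed by Met (6 of 20). It was lowest for Gln (4 of 27, 14.8%, 4.19 to 33.7%), His (3 of 20) and Trp (2 of 12, 16.7%). These intervals overlap, so the order of the isotypes is not settled beyond counting error. The single selenocysteine gene, K11H12.t1, had no pooled region and a signal of 16.19 in replicate 1. The 5 genes with no isotype in the RefSeq annotation had no region.

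**Figure D4:**
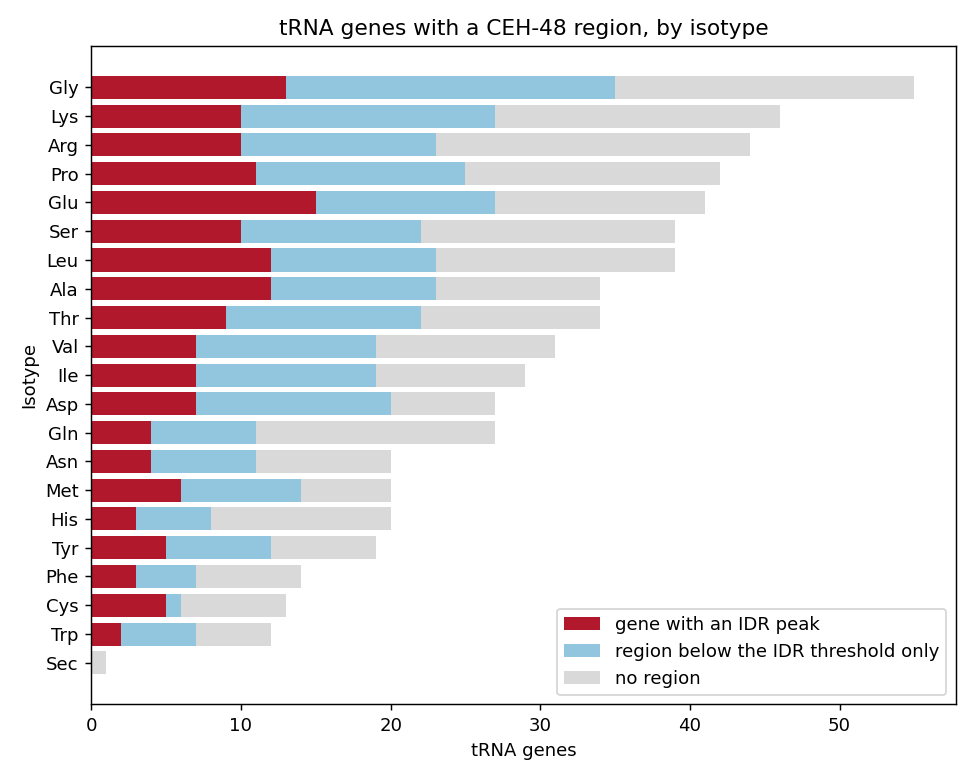
Number of tRNA genes per isotype (x axis) with an IDR peak (dark), with a weaker region only (light) and with no region in the pooled list (grey), for 21 isotypes (y axis). Gly has the most genes (55), of which 13 have an IDR peak; Glu has the most genes with an IDR peak (15).

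The strongest region of each isotype was at a gene of the top 15 for Leu, Glu, Gly, Lys, Ile, Asn, Ala, Arg, Trp, Cys and Tyr. For the others, the pooled signals were lower. His (C06G1.t1) had 272.7, with 63.24 in replicate 1 and 205.5 in replicate 2, and Thr (R01H5.t1) had 264.5, with 88.01 in replicate 1 and 174.8 in replicate 2. Val (R04D3.t2) had 252.2, with 64.4 in replicate 1 and 184.9 in replicate 2. These 3 genes lie on X. Ser had 244.3, at a region shared by the divergent pair C53C7.t2 and C53C7.t1, with its summit 28 bp upstream of C53C7.t1. Pro (F46G11.t2, which shared its region with F46G11.t1) had 240.0 and Asp (F38G1.t2) had 238.4. Met (T15B12.t1, chromosome III) had 223.6, with 84.21 in replicate 1 and 142.7 in replicate 2, and Gln (R04A9.t1, X) had 181.2, with 58.78 in replicate 1 and 128.5 in replicate 2. The best rank of an isotype ran between 94 for Leu and 632 for Gln.

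The 12 Trp genes show how members of 1 isotype differed, several of them named after amber suppressor mutations. A pooled region was found at 7 of the 12, a region in replicate 1 at 8 and a region in replicate 2 at 5. Not all 12 are named here. sup-5 (chromosome III, 8678497 to 8678568, in an intron of fli-1) had a pooled signal of 284.7, with 80.84 in replicate 1 and 198.5 in replicate 2, and sup-7 had 152.9. sup-28 had 71.91, Y95B8A.t1 55.73, rtw-6 47.72, sup-33 27.98 and sup-29 22.21, all below the IDR threshold. sup-24 had a signal of 53.52 in replicate 1 (rank 607) and no region in the pooled list or replicate 2. For sup-21 and Y4C6B.t2 there was no region in any list.

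Copies of the same tRNA sequence had widely different signals. Of the 612 genes, 469 had an identical body elsewhere in the genome, and 130 of these had an IDR peak (27.7%, 23.7 to 32.0%), against 25 of 143 genes of unique sequence (17.5%, 11.6 to 24.7%). In the top set of replicate 1 were 25.4% of the copied genes and 12.6% of the unique ones, and in that of replicate 2 were 28.1% of the copied genes and 17.5% of the unique ones. There were 57 families of identical bodies among 200 distinct sequences, and 37 of them held copies with an IDR peak beside copies with no region. The largest, a Gly sequence in 29 copies, had 22 copies with a region and 6 with an IDR peak, with signals between 331.2 and 21.86. A 25-copy Lys sequence had 18 with a region and 7 with an IDR peak, between 328.7 and 20.57. Reads from identical bodies cannot be placed by the body alone, and how the authors' alignment treated them is not given in the sources used here. With 50 bp of flank on each side, 610 of the 612 genes were unique, so nearly all copies differed in their flanks.

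Genes within 1000 bp of another tRNA gene were compared with genes that stood alone. An IDR peak was found at 35 of 236 clustered genes (14.8%, 10.6 to 20%) and at 120 of 376 single genes (31.9%, 27.2 to 36.9%). The top set of replicate 1 held 16.1% of clustered and 26.3% of single genes, and that of replicate 2 held 16.5% of clustered and 31.4% of single genes. On X the IDR share was 15.6% of clustered genes and 37.6% of single genes, and on the autosomes 13.9% of clustered and 28.5% of single genes. Among genes with an identical copy it was 15.5% of clustered and 36.2% of single genes, and among those of unique sequence 5 of 43 clustered and 20 of 100 single genes. These shares are descriptions of 2 libraries of 1 group, and the difference was not tested. With the 920 IDR peaks of highest signal alone, the share was 28 of 236 clustered genes (11.9%, 8.03 to 16.7%) and 67 of 376 single genes (17.8%, 14.1 to 22.1%), with intervals that overlap.

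Of the 100 clusters, 24 had a gene with an IDR peak and 10 had one at every gene. The cluster with the most was C16B8.t1 to C16B8.t3 on X, 3 Pro genes within 781 bp. Its 2 regions had pooled signals of 188.1, within reach of C16B8.t2 and C16B8.t3, and 96.0 at C16B8.t1. The M02F4.t2 and M02F4.t1 pair and the F15G9.t1 and F15G9.t2 pair followed, the strongest by signal of the 9 clusters with 2 such genes. M02F4.t2 and M02F4.t1 shared a region of 331.2. F15G9.t1 and F15G9.t2 shared a region of 304.5 and had a second, below the IDR threshold, with a summit in F15G9.t2 and a signal of 70.93. At the other extreme were F28H6.t2 to F28H6.t7, 6 His genes of which 2 had a region (29.31) and none an IDR peak, and the 5 genes of K01A12, 3 Cys and 2 Arg, with no region in the pooled list. In the 6-gene cluster F22F1.t2 to F22F1.t7 each gene had a region within reach, and 1, the Met gene F22F1.t6, had an IDR peak (168.7).

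**Figure D5:**
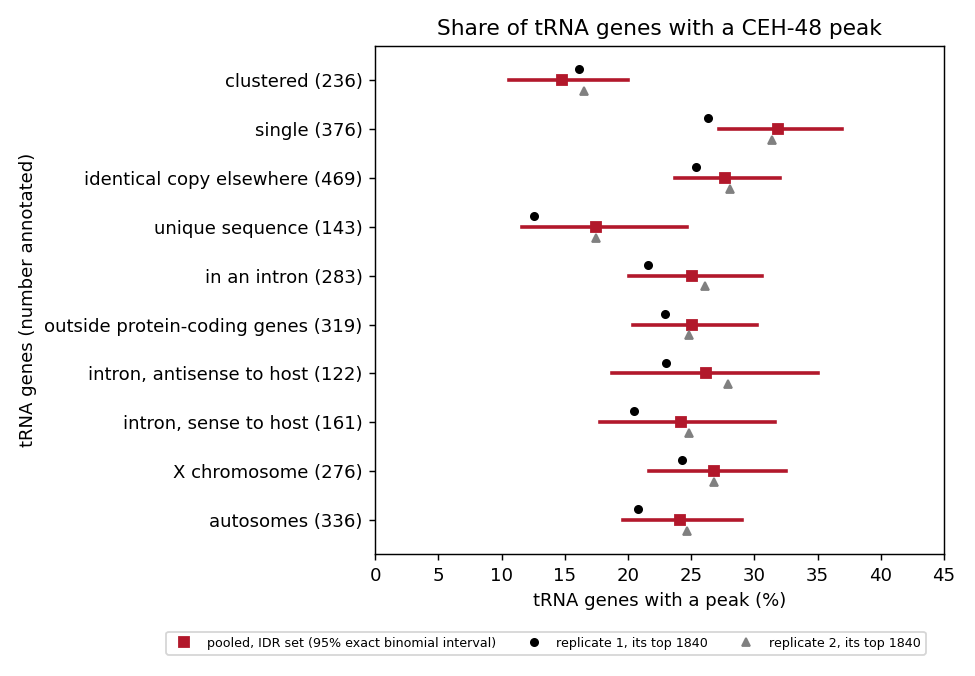
Share of tRNA genes with a peak (x axis, %) by position and copy number (y axis, with the number of genes). Squares are the pooled IDR set with the exact binomial interval, circles and triangles the top sets of replicates 1 and 2. The share is 14.8% for clustered and 31.9% for single genes in the full IDR set, and 25.1% both for genes in introns and for those outside protein-coding genes.

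Intronic tRNA genes had the same share of IDR peaks as those outside protein-coding genes. An IDR peak was found at 71 of 283 intronic tRNA genes (25.1%, 20.1 to 30.6%) and at 80 of 319 outside protein-coding genes (25.1%, 20.4 to 30.2%). Within introns, genes antisense to the host had a peak in 32 of 122 cases (26.2%) and those in the sense direction in 39 of 161 (24.2%). Of the 10 tRNA genes that overlapped an exon, 4 had an IDR peak. The intronic genes lay in 219 host genes, of which 70 had a tRNA IDR peak.

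The hosts of the strongest intronic regions encode proteins of varied kinds. F41D9.t3 (Asn), in the sulfate permease gene sulp-3 on X, had a pooled signal of 308.7, with 80.29 in replicate 1 and 224.7 in replicate 2. F15G9.t1 and F15G9.t2 (Ala), in him-4, which encodes the extracellular matrix protein hemicentin, had their stronger region at 304.5, with 84.27 in replicate 1 and 217.7 in replicate 2. F29C4.t1 (Arg), in the collagen gene col-99 on chromosome IV, had 303.9, with 49.02 in replicate 1 (rank 700) and 256.7 in replicate 2 (rank 158), the largest gap in rank among the 15. sup-5, in fli-1, which encodes an actin-binding protein, and T21B4.t1, in col-85, are given above. C37A2.t1 (Cys), in the cyclin E gene cye-1 on chromosome I, had 279.8, with 73.26 in replicate 1 and 211.2 in replicate 2. C02B4.t2 (Tyr), in the nuclear hormone receptor gene nhr-17 on X, had 276.4, with 63.94 in replicate 1 and 210.5 in replicate 2. C06G1.t1, in C06G1.1, and T28B4.t1, in the F-box gene fbxl-4, came next; their values are given with the isotypes and with the regions missing from a replicate. The 10th region was at K06A4.t1 (Ala), in the sugar transporter gene swt-5 on chromosome V, with 239.3, and with 55.36 in replicate 1 and 178.7 in replicate 2.

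tRNA genes are unevenly spread over the chromosomes: 276 of 612 (45.1%) lie on X. The regions followed this spread. Of the 145 IDR regions at tRNA genes, 68 were on X (46.9%), against 240 of the 1695 other IDR peaks (14.2%). By gene, 74 of 276 on X had an IDR peak (26.8%, 21.7 to 32.5%) and 81 of 336 on the autosomes (24.1%, 19.6 to 29.0%). Between autosomes the share ran between 19.2% on chromosome V and 31.2% on chromosome III.

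Other small RNA genes were searched with the same 200 bp rule. An IDR peak lay at 57 of 346 snoRNA genes (16.5%, 12.7 to 20.8%), the best at rank 5 of the pooled list, above any region at a tRNA gene. It lay at 6 of 129 snRNA genes (4.65%), 8 of 261 miRNA genes (3.07%) and 329 of 7764 other ncRNA genes (4.24%, or 3.13% of the 7353 that lie over 500 bp from a tRNA gene). Genes for U6, an snRNA that RNA polymerase III transcribes, could not be identified among the snRNA genes, so they have no share of their own. At 5′ ends of protein-coding genes, taken as stretches of 72 bp to match the median tRNA length, the share was 565 of 19973 (2.83%). A further pair of genes that RNA polymerase III transcribes in animals had different values: rpr-1, the RNA of RNase P, had an IDR peak with a pooled signal of 293.0 (rank 256) and was in the top set of both replicates, whereas yrn-1, a Y RNA, had no region. None of the 16 5S rRNA genes (rrn-4) had a region (upper limit of the exact interval 20.6%, which counts the 16 genes as independent). How alike these genes are in sequence, and whether reads could be placed at them, was not examined.

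Among 7 genes for the RNA polymerase III machinery, 1 had an IDR peak in the stretch from 1000 bp upstream to 200 bp downstream of its 5′ end; over all protein-coding genes the share was 1256 of 19973 (6.29%). The gene was mafr-1, the homolog of Maf1, a repressor of RNA polymerase III, with a summit 195 bp upstream of the gene. Its pooled signal was 113.1 (rank 1280), with 43.19 in replicate 1 (rank 860) and 67.08 in replicate 2 (rank 1684). The polymerase subunit genes rpc-11 (39.28) and rpc-2 (24.85) had regions below the threshold. No pooled region was found at brf-1, which encodes a TFIIIB subunit, at tbp-1, which encodes the TATA-binding protein, or at rpc-1 and rpc-25. In replicate 1 alone, brf-1 had a region of 16.05 (rank 7715), rpc-25 one of 10.14 (rank 24266) and tbp-1 one of 9.88 (rank 25486).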

How the data were processed

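ChIP-seq region lists of 2 biological replicates of 1 group, and of both pooled, were used. Each list of peaks and background was made by the authors, per the read-me files deposited with it, from the alignments of 1 replicate or of both, together with 1 further input file, and the IDR set was derived from these lists. The signal of each region was deposited by the authors with no stated scale. Aligner, caller and IDR cutoff: not given in the sources used here. Lists for ce10 were not used here, and depth is unknown. With 1 group, no p-value is given; shares carry exact Clopper-Pearson intervals at 95% confidence.

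Summits were placed against Ensembl genes (WBcel235). Isotypes came from RefSeq, matched by WormBase gene ID for 612 of 612 tRNA genes, all at the same position in both annotations. Replicate summits at most 100 bp apart counted as the same. Clusters joined genes at most 1000 bp apart. Named are the 15 regions of highest signal, the best gene per isotype, hosts of the 10 strongest intronic regions, the 3 clusters with most IDR genes (ties broken by signal), the regions at the threshold and the polymerase III machinery list. Further Trp genes, the regions missing from a replicate, the 3 regions with ATCGAT and the K01A12, F28H6 and F22F1 clusters were chosen after their values were seen. Sequences of genes on chromosome I, or with an identical copy there, are not shown, which left 7 of the top 15. Members and lists were chosen with earlier results of these data known. Summit placement was tested on simulated regions. Alternatives covered the distance rule, the peak set, the match between replicates, the motif, the cluster gap and each replicate alone. Python 3.11.15, numpy 2.4.6, pandas 2.3.3, scipy 1.17.1 and matplotlib 3.10.9 were used.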

Additional observations from a re-analysis of the deposited data

How the results depend on the processing

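Over 75 alternative values for 14 results, 56 stayed close to the reported value (a share or median within its interval, a number of regions within a fixed ratio) and 19 did not. The number of regions was 316 within 100 bp and 415 within 500 bp. Taking summits within 100 bp of a tRNA gene gave 45.6% of regions in the IDR set, a median percentile of 92.9, 69.9% with a summit in both replicates and 52.5% of genes with a region; within 500 bp, 67.0% of genes had one. Counting replicate summits within 50 bp as the same gave 46.9% in both replicates, and within 200 bp 74.2%. With the 920 strongest IDR peaks in place of the set, by construction fewer, the shares were 23.9% of regions, 15.5% of genes, 14.1% of intronic genes, 16.6% outside protein-coding genes, 11.9% of clustered genes, 17.8% of single genes, 16.8% of copied genes and 11.2% of unique genes. ATCGAT or ATTGAT was in 8.33% of regions. With 50 bp of flank, 0.0% of the 2 genes with an identical copy and 25.4% of the 610 unique genes had an IDR peak. Leaving out 1 replicate gave a median percentile between 89.0 and 91.1, and between 26.3 and 31.4% of single genes with a peak. Over all tRNA genes, clustered genes had a lower share than single genes in each replicate alone, though not among genes of unique sequence in replicate 1. No paired analysis was possible because there is 1 group. Depth is unknown, and the lists give no read counts, so a gene with no region cannot be told apart from one below detection.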
